A study of Mus musculus with 30 samples.

Results

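Embryonic stem cells (ESC) that carry a deletion in Rbm38 were compared here with their unedited parental cells by RNA sequencing. The comparison takes 4 of the 30 libraries of the series, chosen by their titles: 2 libraries of Rbm38KO and 2 of the parental line (WT) at the ESC stage. All cells are of the mouse stem cell line CGR8. Rbm38KO is labelled as clonal lines with a CRISPR-Cas9 deletion of about 1300 bp inside Rbm38, and WT is the line before editing. Per the design text there were 2 independent clones, and how they map to the libraries is not given. P-values below therefore measure only how far replicate libraries spread, which may be technical variation. The fits take this spread from other lines too and, for gene levels, from other stages. The same lines were also sequenced as embryoid bodies at day 8 (EB8), after retinoic acid, and as neurons after 7 days in vitro (DIV7). The other edited ESC lines are Puf60_pEx5_HOM and Puf60_pEx5_HET, with constitutive exon 5 of Puf60 on both alleles or on 1, and Puf60_mEx5_HOM, labelled as lacking that exon. The libraries were made from polyA RNA with a stranded kit.

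Rbm38 (also called RNPC1) is an RNA-binding protein with 1 RNA recognition motif. It binds U-rich and GU-rich stretches of mRNA and changes their stability, translation or splicing. It is a target of the transcription factor p53, and human RBM38 stabilises the mRNA of the cell cycle inhibitor p21, binds p53 mRNA and regulates splicing in red blood cell precursors. Rbm24 is its closest relative.

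The deletion was placed on the gene from the guide sequences in the labels. Rbm38 lies on chromosome 2 of mouse build mm10 (GENCODE M21, plus strand, chr2:173020498-173034734). The first guide matched the coding sequence of transcript Rbm38-201 at chr2:173022059-173022078, and the next 3 bases are CGG, which has the NGG form that Cas9 commonly needs. Only 11 bases of the second guide could be read in the labels, and they matched at chr2:173023360-173023370, inside a coding exon of 55 nt. The matches start 1301 bases apart. Both are shown 5′ to 3′ on the plus strand, because they mark the ends of the edited stretch; capitals mark the bases of the guide.
First guide site with 15 bases before it: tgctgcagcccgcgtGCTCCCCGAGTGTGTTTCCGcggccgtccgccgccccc
Exon of 55 nt at chr2:173023327-173023381: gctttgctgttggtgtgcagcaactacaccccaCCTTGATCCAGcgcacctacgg

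Gene levels are given in CPM, spliced reads of a gene per 1e6 reads after scaling each library by the median of its ratios. A spliced read is one that crosses an exon junction, so genes without introns have no value. The 4 libraries held 32632609 to 35712097 such reads. Fold changes are Rbm38KO over WT on the log2(CPM + 1) scale, which understates changes of low genes, and come with the standard error of limma fitted to all 30 libraries. Called genes had an adjusted p (Benjamini-Hochberg, 13929 genes tested) under 0.05. The fit shares its estimate of spread over all stages, so genes whose replicates differ at any stage have wide errors.

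Rbm38 itself had 0 CPM in Rbm38KO replicate A and 0 CPM in replicate B, against 86.6 and 82.6 CPM in WT replicates A and B. No read across the annotated introns of the gene was found in the 6 Rbm38KO libraries of the 3 stages. In WT the level was 41.3 and 37.1 CPM at EB8 and 11 and 8.46 CPM at DIV7. With 3 reads over both knockout libraries as the floor, Rbm38 spliced reads were at least 1630-fold lower than in WT at the ESC stage. The same bound was 932-fold in embryoid bodies and 173-fold in neurons. The WT reads cross junctions that lie between the guide matches or begin at the exon with the second match. The bound therefore covers these junctions and is no measure of the whole mRNA.

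By intron, the WT reads were spread over the gene. The first intron downstream of the first guide (chr2:173022271-173022791) had 0 and 0 spliced reads in Rbm38KO, against 1083 and 1031 in WT. The next intron (chr2:173022916-173023326) had 0 and 0, against 716 and 641. The last intron (chr2:173023382-173033505), which begins after the 55-nt exon and lies outside the stretch between the guides, had 0 and 0, against 779 and 689. An intron upstream of the first guide had no read in either line. In WT the 55-nt exon was included in 99.7% and 100% of the reads that cross it. A few reads remained outside those junctions: 1 read of an exon event near the 3′ end in Rbm38KO replicate A, and 2 and 5 reads in the last intron's retention event. In the authors' deposited table Rbm38 had 5.27 RPKM in Rbm38KO and 79.5 RPKM in WT, with a log2 fold change of -4.39 (FDR 1.04e-13). That fall is smaller than the bound from spliced reads. Of the 20 Rbm38 splicing events in the table, none had enough reads in Rbm38KO to be tested.

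**Figure D1:**
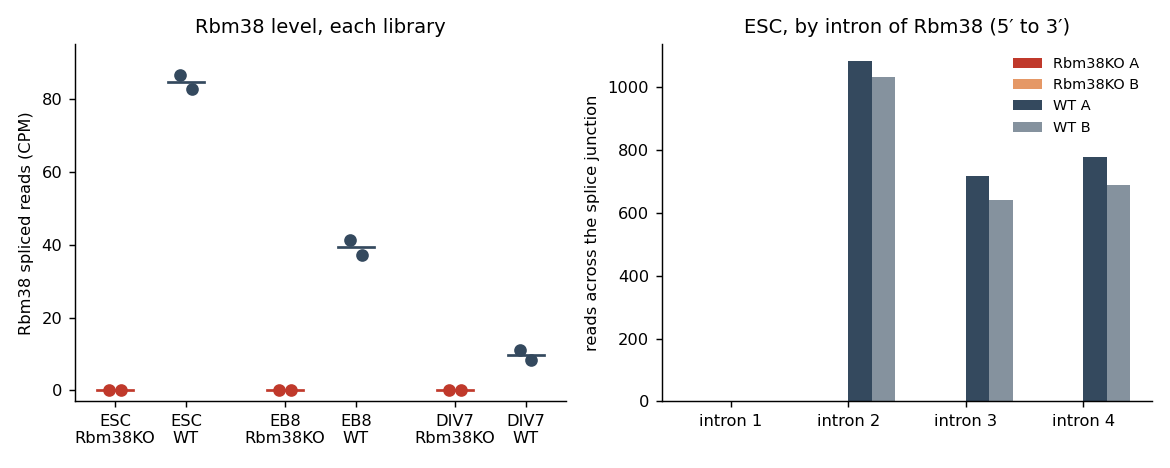
Left, Rbm38 spliced reads in CPM in each library (points) and the mean of 2 libraries (line) for Rbm38KO and WT at the 3 stages. Right, reads across the junction of each Rbm38 intron in the 4 ESC libraries. All 6 Rbm38KO libraries are at 0, and WT ESC libraries are at 86.6 and 82.6 CPM.

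The genes beside Rbm38 were measured to see whether the edit moved them. Rae1, a nuclear export factor directly upstream, had 192 and 198 CPM in Rbm38KO and 201 and 198 CPM in WT (log2 fold change -0.04 ± 0.07). Ctcfl, a germ line paralog of CTCF, was at -0.33 ± 0.19, Zbp1, a sensor of Z-form nucleic acid, at -0.01 ± 0.20 and Pmepa1, an inhibitor of TGF-beta signalling, at 0.02 ± 0.18. None of these 4 was called, and none of the 9 tested genes in the list of neighbours was, where 0.115% of all genes tested were.

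Few other genes differed between Rbm38KO and WT at ESC. Limma called 16 genes, which is 0.115% of the genes tested, with 6 higher (0.0431%) and 10 lower (0.0718%). The 5 that changed at least 2-fold (0.0359%) were all lower: Rbm38, the imprinted noncoding RNAs Meg3, Rian and Mirg, and the imprinted gene Grb10. At an unadjusted p under 0.05, 859 genes (6.17%) differed. The count depends on each library: 7 genes were called without Rbm38KO replicate A, 5 without Rbm38KO replicate B, 10 without WT replicate A and 10 without WT replicate B. In the authors' deposited table an FDR under 0.05 was given for 10 genes, 1 higher and 9 lower, and 7 of them were also among the 16. For each of the 16 genes the libraries of the 2 groups did not overlap, as for 38.3% of all genes tested.

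**Figure D2:**
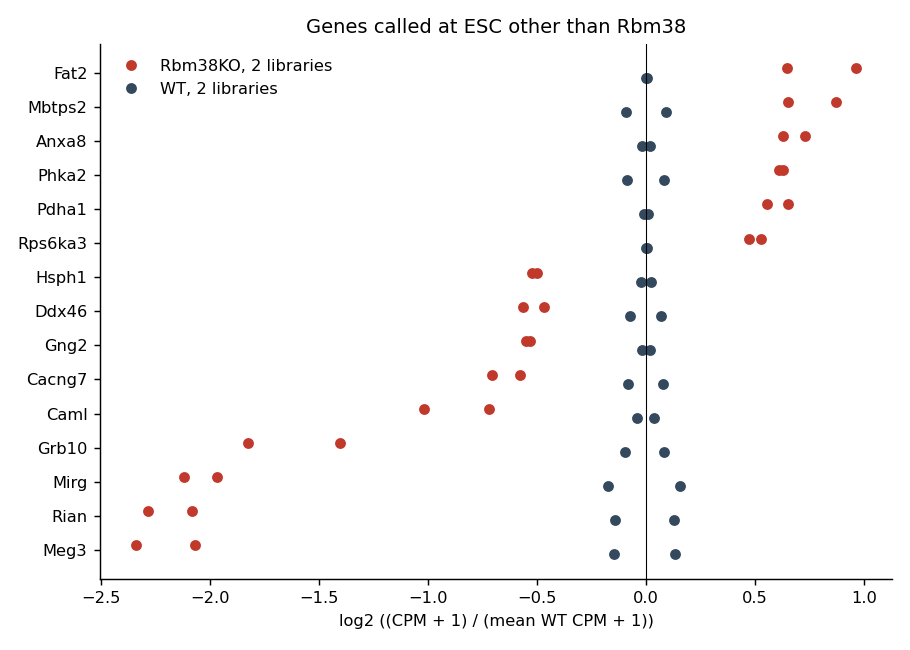
Each library's level of the 15 called genes other than Rbm38, as log2 of (CPM + 1) over (mean WT CPM + 1), for Rbm38KO (red, upper row of each gene) and WT (dark, lower row). The 6 genes called higher lie right of all WT libraries and the 9 called lower lie left of them.

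The largest falls after Rbm38 were in the Dlk1-Meg3 cluster of chromosome 12. In this imprinted region the noncoding RNAs Meg3, Rian (host of small nucleolar RNAs) and Mirg (host of microRNAs) are transcribed from the maternal chromosome, and Dlk1, Rtl1 and Dio3 from the paternal one. Meg3 had 0.823 and 1.2 CPM in Rbm38KO, against 7.32 and 9.1 CPM in WT (-2.19 ± 0.36, limma adjusted p = 0.0125). Rian had 0.757 and 1.02 CPM in Rbm38KO, against 6.75 and 8.36 CPM in WT (-2.18 ± 0.25, adjusted p = 7.69e-05). Mirg had 0.329 and 0.472 CPM in Rbm38KO, against 4.1 and 5.42 CPM in WT (-2.03 ± 0.23, adjusted p = 7.69e-05). All 3 were low in both knockout libraries. They lie side by side, so they are not independent observations. Without Rbm38KO replicate A, Rbm38KO replicate B, WT replicate A or WT replicate B, Meg3 was no longer called (adjusted p up to 0.741 over its alternatives), while Rian and Mirg were called in each of the 15 alternatives. The authors' deposited table gave log2 fold changes of -2.98, -3.45 and -3.32 for Meg3, Rian and Mirg, with FDR of 0.282, 0.00208 and 0.0129.

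The protein-coding genes of the cluster were not called. Dlk1, a membrane protein that inhibits adipocyte differentiation, had 6.29 and 4.36 CPM in Rbm38KO, against 10.2 and 9.48 CPM in WT (-0.79 ± 0.29, adjusted p = 0.583). Rtl1, a gene derived from a retrotransposon, had no spliced read in these 4 libraries, and Dio3, an enzyme that inactivates thyroid hormone, had no value here. The authors' deposited table listed Rtl1 at 0.05 RPKM in Rbm38KO and 0.04 RPKM in WT, and Dio3 at 0.99 RPKM in Rbm38KO and 0.98 RPKM in WT. So all 4 tested members of the cluster were lower and 3 of them were called, with a median of -2.11, beside a median of 0 over all genes tested.

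The same 3 noncoding RNAs were low in Rbm38KO at the later stages as well, in other libraries of the same lines. At EB8 Meg3 averaged 6.43 ± 0.265 CPM in Rbm38KO and 70.6 ± 25.2 CPM in WT (SD, n = 2 each), a change of -3.22. At DIV7 it averaged 21.2 ± 3.92 CPM in Rbm38KO and 357 ± 2.73 CPM in WT (SD, n = 2 each), a change of -4.02. Meg3, Rian and Mirg were each called lower at both stages (limma adjusted p from 1.77e-07 to 0.000158), where 0.0503% of genes at EB8 and 0.431% at DIV7 were called lower. For none of the 3 did the interaction test call a difference between the change at ESC and that at EB8 or DIV7 (adjusted p from 0.501 to 1). ESC minus DIV7 was 1.83 ± 0.51 for Meg3, 0.90 ± 0.35 for Rian and 0.38 ± 0.33 for Mirg. ESC minus EB8 was 1.03 ± 0.51, 0.05 ± 0.35 and -0.06 ± 0.33. Equal changes at the 3 stages were thus not shown.

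Other ESC lines of the series also departed from WT at this locus. Meg3 had 1.71 and 2.99 CPM in Puf60_pEx5_HOM, 37.7 and 81.1 CPM in Puf60_pEx5_HET, and 1.93 and 3.44 CPM in Puf60_mEx5_HOM. The Rbm38KO libraries were thus the lowest of the 10 ESC libraries for Meg3, Rian and Mirg, the Puf60_pEx5_HET libraries the highest, and the WT libraries lay between. Against WT, the log2 changes of Rian were -2.18 in Rbm38KO, -1.84 in Puf60_pEx5_HOM, 2.25 in Puf60_pEx5_HET and -1.62 in Puf60_mEx5_HOM, and these comparisons share the 2 WT libraries. Directly against Puf60_pEx5_HET, Rbm38KO was lower by -4.82 for Meg3, -4.42 for Rian and -4.01 for Mirg (limma adjusted p from 1.89e-10 to 3.36e-07). Whether the level of the locus varies between clones of CGR8 apart from the Rbm38 deletion was not tested.

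**Figure D3:**
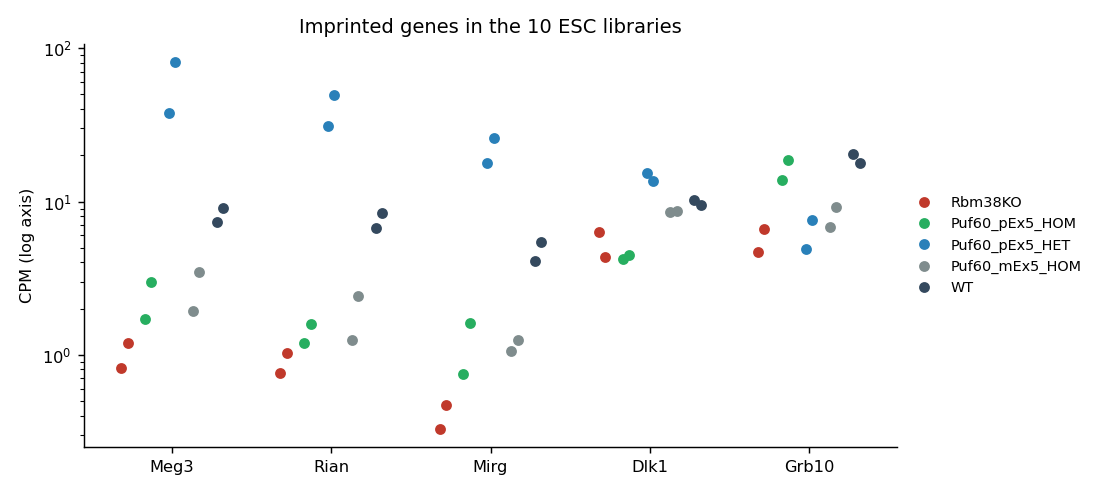
CPM on a log axis of 4 genes of the Dlk1-Meg3 cluster and of Grb10 in the 10 ESC libraries, 2 points per line. Rbm38KO has the lowest Meg3, Rian and Mirg levels (0.329 to 1.2 CPM), Puf60_pEx5_HET the highest, and WT lies between them.

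Grb10, an imprinted adaptor protein that restrains insulin and growth factor receptors, had 4.71 and 6.65 CPM in Rbm38KO, against 20.4 and 17.9 CPM in WT (-1.61 ± 0.22, limma adjusted p = 0.00106). Without Rbm38KO replicate A its adjusted p was 0.0503. At EB8 the difference was larger: 0.954 and 1.15 CPM in Rbm38KO, against 34.2 and 29.5 CPM in WT (-4.00 ± 0.22). At DIV7 it had 19 and 16.1 CPM in Rbm38KO and 17.1 and 20.8 CPM in WT (-0.10 ± 0.22, adjusted p = 1). The interaction of stage and line was 2.40 ± 0.31 for ESC minus EB8 (limma adjusted p = 0.00184; 0.00718% of all genes passed that test) and -1.50 ± 0.31 for ESC minus DIV7 (adjusted p = 0.127; 0.0287% of all genes passed). Grb10 was also lower than WT in Puf60_pEx5_HET, at 4.89 and 7.62 CPM, and in Puf60_mEx5_HOM, at 6.83 and 9.17 CPM (limma adjusted p = 0.00297 and 0.0128). In Puf60_pEx5_HOM it had 13.9 and 18.7 CPM, which overlapped WT (-0.23, adjusted p = 0.559). Of the 17 tested imprinted genes outside the Dlk1-Meg3 cluster, Grb10 was the 1 called, and the list's median was 0.02. The other members ranged from -0.40 ± 0.45 for Igf2 to 0.49 for Nnat, a proteolipid of the developing brain. Nnat had 26.6 and 29.3 CPM in Rbm38KO and 18.8 and 20.3 CPM in WT (limma adjusted p = 0.571). With Grb10 included, 5 of the 17 had an unadjusted p under 0.05, where 6.17% of all genes tested did.

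Caml and Ddx46, neighbours on chromosome 13, were both lower in Rbm38KO. Caml (chr13:55623005-55632411), a membrane protein of the endoplasmic reticulum that helps to insert tail-anchored proteins, had 4.08 and 5.23 CPM in Rbm38KO, against 9.54 and 8.99 CPM in WT (-0.87 ± 0.12, limma adjusted p = 0.00144). Ddx46 (chr13:55635027-55681256), the RNA helicase that acts with the U2 snRNP at the branch site, had 231 and 216 CPM in Rbm38KO, against 336 and 304 CPM in WT (-0.51 ± 0.08, adjusted p = 0.00628). The genes lie on the plus strand, with 2615 bases between them. Each of the 3 Caml introns was at 0.494 to 0.505 times its WT reads, and each of the 20 Ddx46 introns with reads was at 0.624 to 0.755 times, so the loss was not restricted to 1 part of either transcript. Ddx46 was named although it did not rank among the 8 largest falls.

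Both genes were lower in the same line at the later stages. Caml was at -0.93 at EB8 and -0.84 at DIV7 (limma adjusted p = 0.000363 and 0.00112), and Ddx46 at -0.41 and -0.38 (adjusted p = 0.0605 and 0.0376). In the other ESC lines Caml was at 0.12 to 0.16 against the same WT libraries, and directly against Puf60_pEx5_HET Rbm38KO was lower by -1.02 (adjusted p = 3.86e-05). Ddx46 was at -0.08 in Puf60_mEx5_HOM, 0.14 in Puf60_pEx5_HET and 0.74 in Puf60_pEx5_HOM. The tested genes on either side were not called. Upstream, B4galt7, which builds the linker of proteoglycans, was at 0.25 and Tmed9, a cargo receptor of the secretory pathway, at 0.05. Downstream, Txndc15, a thioredoxin domain protein, was at 0.03. Caml was no longer called without Rbm38KO replicate A, and Ddx46 not without Rbm38KO replicate B or WT replicate A. In the authors' deposited table Caml was at -0.907 (FDR 0.0141) and Ddx46 at -0.53 (FDR 1).

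The remaining genes called lower changed less than 2-fold. Hsph1, a chaperone of the HSP110 family, had 185 and 182 CPM in Rbm38KO, against 258 and 266 CPM in WT (-0.51 ± 0.09, limma adjusted p = 0.00696). Cacng7, a subunit that accompanies AMPA receptors, had 14.4 and 15.8 CPM in Rbm38KO, against 22.7 and 25.5 CPM in WT (-0.64 ± 0.12, adjusted p = 0.026). Gng2, a G protein gamma subunit, had 16.1 and 16.3 CPM in Rbm38KO, against 23.7 and 24.3 CPM in WT (-0.54 ± 0.10, adjusted p = 0.0266). None of the 3 was called when any 1 of the 4 libraries was left out, and at EB8 and DIV7 their changes lay between -0.22 and 0.20. In Puf60_pEx5_HOM, Puf60_pEx5_HET and Puf60_mEx5_HOM against the same WT libraries, Hsph1 was at -0.92, 0.15 and -0.33, Cacng7 at -1.48, -0.44 and -0.19, and Gng2 at -0.24, -0.30 and -0.50. With the mean of the other 4 ESC groups as the control, none of the 3 was called, with changes of -0.24 for Hsph1, -0.11 for Cacng7 and -0.28 for Gng2.

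Of the 6 genes called higher, 4 lie close together on the X chromosome. Mbtps2, the site-2 protease that cleaves membrane-bound transcription factors such as SREBP, had 34.2 and 39.9 CPM in Rbm38KO, against 20 and 22.9 CPM in WT (0.76 ± 0.11, limma adjusted p = 0.00144). Pdha1, the E1 alpha subunit of pyruvate dehydrogenase, had 485 and 519 CPM in Rbm38KO, against 328 and 332 CPM in WT (0.60 ± 0.09, adjusted p = 0.00144). Phka2, a regulatory subunit of phosphorylase kinase, had 55.3 and 56.1 CPM in Rbm38KO, against 33.7 and 38.1 CPM in WT (0.62 ± 0.09, adjusted p = 0.00192). Rps6ka3, the kinase RSK2, had 52.6 and 54.6 CPM in Rbm38KO, against 37.6 and 37.7 CPM in WT (0.50 ± 0.10, adjusted p = 0.0304). In each of the 4 both knockout libraries lay above both WT libraries. Without Rbm38KO replicate B none of the 4 was called, and without WT replicate A only Pdha1 was. Without Rbm38KO replicate A or WT replicate B, 3 of them were.

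Most of their neighbours had positive changes too, although none of the others was called. After the values were seen, the run of tested genes from Sms to Ctps2 (chrX:157443855-163032508) was singled out. It holds 20 tested genes, of which 19 had a positive change, with a median of 0.51, while the 466 other tested genes of the X chromosome had a median of -0.05 and none was called. The 14 genes of the run with at least 5 CPM in WT lay between 0.40 and 0.76. Besides the 4 called genes they include Sms (spermine synthase, 0.48 ± 0.10), Eif1ax (a translation initiation factor, 0.48 ± 0.10), Rbbp7 (a histone-binding subunit of chromatin complexes, 0.40 ± 0.08) and Ctps2 (a CTP synthase, 0.50 ± 0.11), which had adjusted p of 0.0526 to 0.0681. The 6 tested genes before the run and the 6 after it lay between -0.32 and 0.10. In running medians of 15 neighbouring genes with at least 5 CPM in WT, over all chromosomes, the highest value was 0.507, inside the run, and the highest in windows without a gene of the run was 0.189.

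The run was also higher in Rbm38KO at the later stages. At EB8 all 20 genes had a positive change (median 0.44) and 6 were called higher, where 0.0574% of all genes tested were. At DIV7 all 20 were positive again (median 0.55) and 10 were called higher, where 0.0862% of all genes were. Pdha1 had 247 and 246 CPM in Rbm38KO at EB8, against 179 and 176 CPM in WT, and 524 and 484 CPM in Rbm38KO at DIV7, against 300 and 374 CPM in WT.

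The same run separated the other ESC lines. Pdha1 had 615 and 608 CPM in Puf60_pEx5_HOM, 240 and 239 CPM in Puf60_pEx5_HET and 466 and 451 CPM in Puf60_mEx5_HOM, so WT lay between Puf60_pEx5_HET and the 3 other edited lines. Against the shared WT libraries the median of the run was 0.51 in Rbm38KO, 0.42 in Puf60_pEx5_HOM, -0.37 in Puf60_pEx5_HET and 0.52 in Puf60_mEx5_HOM. In Puf60_pEx5_HOM 12 of the 20 genes were called higher, in a line where 9.1% of all genes were higher and 8.53% lower, and in Puf60_mEx5_HOM 9 were, where 0.165% were. In Puf60_pEx5_HET 3 were called lower (0.0359% of all genes). Directly against Puf60_pEx5_HET, with no shared library, 13 of the 20 genes were higher in Rbm38KO (median 0.88), where 0.122% of all genes were. Rbm38 lies on another chromosome, and what sets the level of the run in these lines was not tested.

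**Figure D4:**
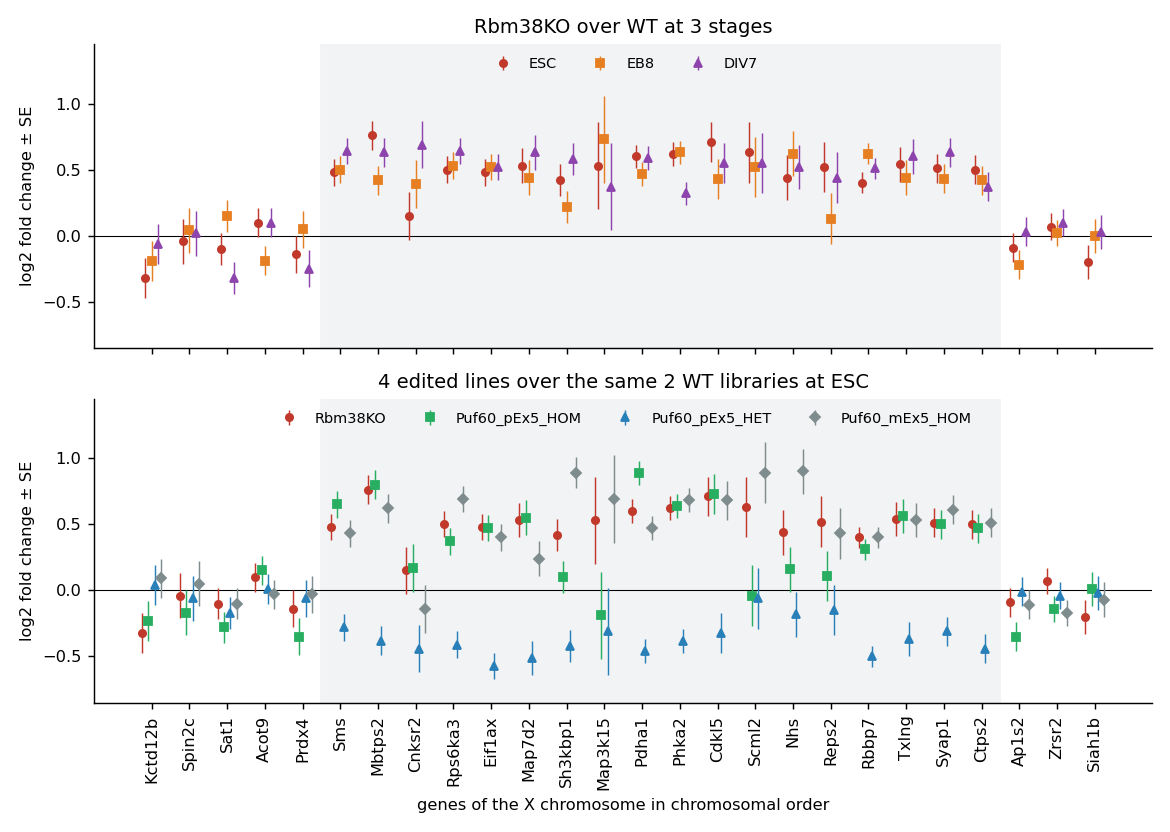
Log2 fold change ± SE of 26 X-chromosome genes with a mean of at least 1 CPM in WT, in chromosomal order. The shaded part holds 18 genes of the run from Sms to Ctps2. The upper panel shows Rbm38KO over WT at the 3 stages and the lower panel 4 edited lines over the same WT libraries at ESC. Over all 20 genes of the run the Rbm38KO medians are 0.51 at ESC, 0.44 at EB8 and 0.55 at DIV7, and single genes range from 0.15 (Cnksr2) to 0.76 (Mbtps2) among those plotted at ESC. Puf60_pEx5_HET values in the run lie below 0.

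The other two genes called higher lie elsewhere and are expressed at low levels. Fat2, an atypical cadherin, had 3.82 and 2.87 CPM in Rbm38KO, against 1.48 and 1.47 CPM in WT (0.80 ± 0.15, limma adjusted p = 0.0268). Anxa8, an annexin, had 5.76 and 6.25 CPM in Rbm38KO, against 3.33 and 3.43 CPM in WT (0.68 ± 0.13, adjusted p = 0.0426). Both lost the call when any 1 of the 4 libraries was left out. Fat2 was at 1.54 in Puf60_pEx5_HOM against the same WT libraries (adjusted p = 4.93e-07), and with the mean of the other 4 ESC groups as the control it was at 0.17 and not called. Anxa8 was at -0.14 in Puf60_pEx5_HOM. Among genes that missed the adjusted threshold, the largest positive changes were in Napsa, an aspartic peptidase (0.79 ± 0.20, adjusted p = 0.23), Tmem191c (0.69 ± 0.23, adjusted p = 0.496), Cfp, the complement factor properdin (0.68 ± 0.16, adjusted p = 0.143), and Naaa, a lysosomal amidase (0.59 ± 0.18, adjusted p = 0.438). With 5 CPM rather than 1 added before the log, Cfp was called (0.47, limma adjusted p = 0.0293). Its change was 0.92 without WT replicate A and 0.44 without WT replicate B. With the mean of the other 4 ESC groups as the control it was 0.09. All 4 were at 0.72 to 2.20 in Puf60_pEx5_HOM against the same WT libraries.

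The p53 pathway showed no called gene at ESC. Of 34 tested p53 targets, 0 were higher and 0 were lower, with a median of -0.01, and 1 had an unadjusted p under 0.05. Over all genes tested 0.115% were called and 6.17% had an unadjusted p under 0.05. A list of this size without a call is therefore near the share over all genes. Cdkn1a, which encodes p21, had 56.9 and 54.4 CPM in Rbm38KO and 49.7 and 55.5 CPM in WT (0.08 ± 0.19). Mdm2, the ubiquitin ligase of p53, had 91.8 and 107 CPM in Rbm38KO and 92.2 and 108 CPM in WT (-0.01 ± 0.11). Values of the 2 groups overlapped for both genes.

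The 12 tested mRNAs of the list of reported Rbm38 targets also held no called gene, with a median of 0.02 and a range of -0.16 to 0.30. Trp53, which encodes p53, had 1050 and 1020 CPM in Rbm38KO and 934 and 985 CPM in WT (0.11 ± 0.13). Myc, a growth regulator, was at -0.16 ± 0.13, Hif1a, the hypoxia factor, at -0.15 ± 0.09, and Gdf15, a stress cytokine, at 0.30 ± 0.13 (adjusted p = 0.73). Rbm24 remained near the detection limit, at 0.0988 and 0.145 CPM in Rbm38KO and 0.0672 and 0.245 CPM in WT. Of the 13 tested RNA-binding relatives, Rbm38 alone was called, and the others lay between -0.19 for Zfp36 and 0.13 for Zfp36l1. None of 38 alternative splicing regulators and none of 30 cell cycle genes was called, with medians of 0.02 and -0.04. With 0.115% of all genes tested called, lists of these sizes without a call are near that share. Ccnd3, a G1 cyclin, had the lowest value of the cell cycle list (89.4 and 90.6 CPM in Rbm38KO, 132 and 131 CPM in WT, -0.54 ± 0.14, adjusted p = 0.23).

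Markers of the stem cell state were present in all 4 libraries. Pou5f1, the central pluripotency factor Oct4, had 1770 and 1710 CPM in Rbm38KO and 1740 and 1730 CPM in WT (0.01 ± 0.84). Nanog had 242 and 222 CPM in Rbm38KO and 190 and 218 CPM in WT (0.19 ± 0.52). The 6 measured stem cell markers summed to 4440 to 4460 CPM in Rbm38KO and 4150 to 4370 CPM in WT, and Sox2, a gene without introns, had no value. Of 25 tested naive pluripotency genes 0 were called, with 20 positive and a median of 0.10. Standard errors in this list ran from 0.10 (Trim28) to 0.84 (Pou5f1). For genes with wide errors even a 2-fold change could be missed, so the lack of a call says little about them. Of 9 tested formative and primed epiblast genes 0 were called, with 9 negative and a median of -0.23. The lowest of them was Dnmt3b, a DNA methyltransferase, with 637 and 610 CPM in Rbm38KO and 876 and 781 CPM in WT (-0.41 ± 0.77, adjusted p = 1).

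None of the markers of other cell types was called, and some neuron and fibroblast markers were well above 0 in both lines. Summed levels were 6.54 to 7.21 CPM in Rbm38KO and 7.8 to 8.7 CPM in WT for 4 primitive endoderm markers, 2.83 to 3.82 CPM in Rbm38KO and 2.79 to 5.04 CPM in WT for 3 trophoblast markers, and 22.5 to 22.8 CPM in Rbm38KO and 19.8 to 31.8 CPM in WT for 3 mesendoderm markers. The 4 neuron markers summed to 203 to 241 CPM in Rbm38KO and 266 to 284 CPM in WT, mostly Stmn2 and Tubb3, while Dcx was at or near 0. The lower sum in Rbm38KO came from Stmn2 (142 and 125 CPM in Rbm38KO, 186 and 226 CPM in WT, -0.62), and Tubb3 was at 0.37, Elavl3 at 0.30 and Dcx at 0.03. The 4 fibroblast markers summed to 96.7 to 148 CPM in Rbm38KO and 136 to 165 CPM in WT, mostly the collagen Col1a1 (111 and 71.1 CPM in Rbm38KO, 99.8 and 119 CPM in WT). In the longer lists, the keratin Krt18 had 86.5 and 99 CPM in Rbm38KO and 127 and 225 CPM in WT (-0.86 ± 0.47, adjusted p = 0.899), and the smooth muscle actin Acta2 had 21.2 and 20.4 CPM in Rbm38KO and 37.6 and 60.4 CPM in WT (-1.16 ± 0.47, adjusted p = 0.708). WT replicate B was the highest library for both. In bulk RNA, fewer cells of a type and less RNA per cell cannot be told apart.

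No list other than those that hold Rbm38, the Dlk1-Meg3 RNAs or Grb10 had a called member, where 0.115% of all genes tested were called. The tested members without a call were 14 of nonsense-mediated decay (median 0.05), 11 of the stress response (0.04), 18 of glycolysis and hypoxia (-0.11), 8 of heme and red blood cells (0.02), 6 of muscle (-0.13), 12 of mesendoderm and mesoderm (0.05), 12 of primitive endoderm (-0.09), 9 of trophoblast (-0.23), 14 of neurons and their progenitors (0.06), 14 of fibroblasts and contractile cells (-0.34), 3 of 2-cell-like cells (-0.02) and 5 Y-linked genes (0.25). In the list of fibroblasts and contractile cells 12 of the 14 were negative. An unadjusted p under 0.05 was reached by 3 of them, where 6.17% of all genes tested did so. Myl9 in that list had 4.31 and 4.65 CPM in Rbm38KO and 9.64 and 12.6 CPM in WT (-1.14 ± 0.28, limma adjusted p = 0.198). The neuronal list also had 3 of 14 at that threshold, with 9 of its members positive and 5 negative. Of the Y-linked genes, the RNA helicase Ddx3y had 51.4 and 51.2 CPM in Rbm38KO and 40.7 and 36.6 CPM in WT (0.40 ± 0.11, adjusted p = 0.242).

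Splicing was compared through the percent spliced in (PSI), the share of transcripts that include an exon, use a splice site or retain an intron. The test was limma on the log ratio of inclusion to exclusion reads, weighted by reads, over the 10 ESC libraries. It covered 22019 events with at least 10 reads in every ESC library and a mean PSI of 5 to 95: 6243 exons, 185 microexons, 5762 alternative 3′ and 4495 alternative 5′ splice sites and 5334 introns. A call needed an adjusted p under 0.05 and a difference of at least 10 PSI points.

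No event was called at ESC: 0 of 22019 (0%), with a lowest adjusted p of 0.383. At an unadjusted p under 0.05, 1183 events (5.37%) differed, and 27 (0.123%) at an unadjusted p under 0.001. Whatever their p, 1986 events (9.02%) differed by at least 10 points. Unweighted limma called 0 as well, with a lowest adjusted p of 0.0901. Without WT replicate B 4 events were called: both members of a pair of 3′ splice sites in Iqgap3 and a pair of exons with no gene name, 1 of them the 50-nt exon of chromosome 12 described below. Without each of the other 3 libraries 0 were called. In data simulated at these depths the weighted test called 4% of events moved by 10 points, 44% of those moved by 20 and 80% of those moved by 40, so differences near 10 points were mostly out of reach. Of the events with an unadjusted p under 0.001, 20 could be tested at EB8, where 10 had a difference of the same sign and 3 an unadjusted p under 0.05. The authors' deposited table marks 2627 of 302271 events as significant for this comparison, by criteria not given in the sources used here.

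The events named below missed the adjusted threshold. The 3 largest increases and 3 largest decreases were taken among events with an unadjusted p under 0.001. A 67-nt exon of Tfdp2 (chr9:96232682-96232748), a partner of the E2F factors, was included at 91.8% and 97.6% in Rbm38KO, against 54.5% and 53.9% in WT, from 79 to 90 reads per library (adjusted p = 0.383). At EB8 it was at 90.5% and 89.5% in Rbm38KO, against 73.2% and 48.9% in WT (unadjusted p = 0.0143). In Puf60_pEx5_HET at ESC it was at 96.6% and 98.1%, so the high level was not found in Rbm38KO alone.

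A 90-nt intron of 9430015G10Rik was retained at 69.3% and 76.4% in Rbm38KO, against 34.9% and 44.7% in WT (adjusted p = 0.742), and at 42.4% and 46.9% in Rbm38KO at EB8, against 52.7% and 37.9% in WT. Of a pair of 3′ splice sites 9 nt apart in Rbmx2, an RNA-binding protein gene, the first was used at 47% and 49.6% in Rbm38KO, against 28.7% and 19.8% in WT (adjusted p = 0.742). The decreases were the other site of Rbmx2, a 50-nt exon with no gene name (chr12:17902545-17902594, 41.1% and 56.2% in Rbm38KO, 96.2% and 83.7% in WT) and an exon of Cyp4f13, a cytochrome P450 (85% and 73.4% in Rbm38KO, 100% and 100% in WT, from 22 to 40 reads). The unnamed exon was at 19.4% to 51.6% in the 6 libraries of the other edited ESC lines.

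Among exons with deeper coverage, 3 were picked after their values were seen. A 46-nt exon of Hspg2 (chr4:137510122-137510167), which encodes the basement membrane proteoglycan perlecan, was at 15.3% and 13.4% in Rbm38KO, against 30.6% and 30.5% in WT, from 362 to 426 reads (adjusted p = 0.507). The other 6 edited ESC libraries were at 29.8% to 47.1%, and with the mean of the other 4 ESC groups as the control the exon was called. At EB8 it was at 2.33% and 3.66% in Rbm38KO, against 9.56% and 10.4% in WT (unadjusted p = 0.00446, adjusted p = 0.527). A 35-nt exon of Ndel1 (chr11:68826170-68826204), a dynein regulator, was at 16.4% and 16.7% in Rbm38KO, against 26.7% and 32.2% in WT (adjusted p = 0.742), and the other edited ESC libraries were at 22.8% to 34.7%. At EB8 Ndel1 was at 5.69% and 8.98% in Rbm38KO and 7.99% and 7.67% in WT. An 18-nt microexon of Ctnnd1 (chr2:84612532-84612549), the catenin p120, was at 50.8% and 50.6% in Rbm38KO, against 64.7% and 68.8% in WT (adjusted p = 0.808), with other edited ESC libraries at 54.9% to 76.4%. For all 3 exons the Rbm38KO libraries were the lowest of the 10 ESC libraries, an order that the choice of the exons may have favoured. How many of all tested events show such an order was not counted.

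**Figure D5:**
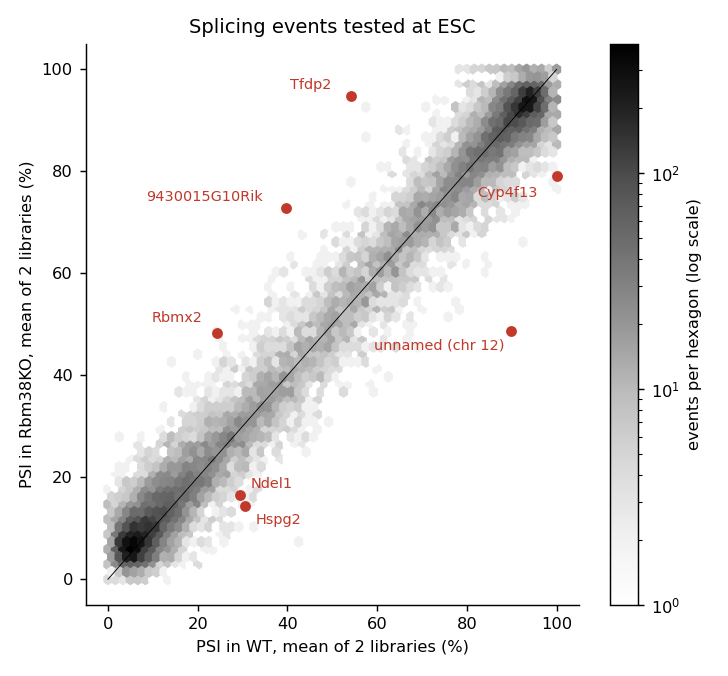
Mean PSI of 2 Rbm38KO libraries (vertical) against that of 2 WT libraries (horizontal) for the 22019 events tested at ESC, with darker hexagons holding more events. Red points are 7 of the events described in the text. Most events lie along the diagonal, and none passed the adjusted threshold.

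Genes whose splicing is linked to human RBM38 were looked at in the same fit. The 9 tested events of Fgfr2, a growth factor receptor, differed by -13.1 to 12.6 PSI points, with a lowest unadjusted p of 0.0166. The 6 tested events of Epb41, the membrane skeleton protein 4.1R, differed by -4.68 to 4.68 points, with a lowest unadjusted p of 0.268. The 3 tested events of Puf60, the splicing factor edited in the other lines, differed by -2.29 to 2.29 points. None of these was called.

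Splicing events called at EB8 were also read at ESC. At EB8 limma called 3 of 28069 events (0.0107%) between Rbm38KO and WT: both members of a 3′ splice site pair of Iqgap3, a scaffold protein, and an intron of Grb10. The first Iqgap3 site was used at 30.6% and 57.1% in Rbm38KO at EB8, against 0% and 0% in WT (adjusted p = 0.00738). At ESC it was at 44% and 34% in Rbm38KO, but WT was split, at 0% in replicate A and 40.3% in replicate B (adjusted p = 0.915), and the site was called at ESC only when WT replicate B was left out, among the alternatives run. The Grb10 intron (chr11:11967686-11970422) was retained at 33.3% and 29.2% in Rbm38KO at EB8, from 28 and 31 reads, against 0.59% and 0.78% in WT. At ESC it was at 0% in all 4 libraries. At DIV7 limma called 0 of 26631 events (0%), and 1257 had an unadjusted p under 0.05.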

How the data were processed

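Spliced reads per gene and library were read from the quality strings of the deposited vast-tools table, as junction reads of its introns summed by gene. No column of the table was left without a sample (0). PSI is a percent made by the authors with vast-tools, per the file headers, and the per-library values were used as deposited. RPKM per group, log2 fold changes, p-values and FDR come from the authors' deposited gene table. Salmon 0.14.1, edgeR and build mm10 are named, with no role given, per the submitters' processing notes. The authors' deposited PSI per group reaches above 100, so it was treated as a score and not printed.

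Scaling of spliced reads used the median of ratios. The filter asked for 1 CPM or more in 2 libraries, and log2(CPM + 1) was fitted with limma 3.58.1 (trend, robust) in R 4.3.3 over 15 group means of 30 libraries, with 15 residual degrees of freedom. Differences between stages were interaction contrasts. Splicing was fitted per stage with 1 read added to each side. No negative binomial model was fitted, and limma with voom weights was an alternative. Simulated data with known changes gave back, at ESC, 36% of changes of 0.5 and 100% of changes of 1 on the log2 scale, with 8 false calls among 13848 genes. The simulation gave every gene the same spread beyond counting error and moved only genes with at least 5 CPM in WT. It does not cover genes with wider errors, such as Acta2, which was at -1.16 ± 0.47 and not called. The floor of 3 reads covers counting error only, and each ± is a standard error of the fit or, where marked, an SD between libraries.

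Named genes were Rbm38, genes called at 2-fold, the 8 largest rises and falls called with non-overlapping groups and 5 RPKM or more (filled at an unadjusted p under 0.01), up to 3 called genes per list, 4 neighbours and the Dlk1-Meg3 list. Anxa8, Ddx46, Fat2 and Hsph1 fall outside this rule. Ddx46 and Hsph1 rank below the 8 largest falls, and Anxa8 and Fat2 have under 5 RPKM. The members and all 22 gene lists were chosen with earlier results of these data known. Gene positions are from GENCODE M21, which matched 98.6% of tested genes by symbol.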

Additional observations from a re-analysis of the deposited data

Results flagged for a closer look

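The change between Rbm38KO and WT differed between stages for 5 genes by limma's interaction test (adjusted p under 0.05 over all 13929 genes). For Grb10 the difference of the log2 changes, ESC minus EB8, was 2.40, since the fall was larger in embryoid bodies. For Rbm38 the difference, ESC minus DIV7, was -3.01. Rbm38KO was at 0 CPM at both stages, and WT averaged 84.6 CPM at ESC and 9.71 CPM at DIV7. For Rasgrf1, a Ras activator that is imprinted in mice, ESC minus DIV7 was 3.49: the change was 0.03 at ESC and -3.46 at DIV7. Rasgrf1 averaged 0.0363 CPM in Rbm38KO and 0.0168 CPM in WT at ESC, and 13 CPM in WT at DIV7. For Nepn, a secreted proteoglycan, the same difference was 1.19, with -1.19 at DIV7. For Aqp1, a water channel, it was 0.97, with -0.95 at DIV7 and 0.03 at ESC. At ESC Nepn had 0 CPM in both lines, and Aqp1 averaged 0.0346 CPM in Rbm38KO and 0.0168 CPM in WT. Rasgrf1, Nepn and Aqp1 were thus hardly detected at ESC, where a fall could not have been seen.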

How the results depend on the processing

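Of the 16 called genes, Rbm38, Rian and Mirg were called under all 15 alternatives, and none reversed. The count of 16 became 27 with a pseudocount of 5, 44 with no filter on low values and 5 when a 2-fold change was also asked for, and 5 to 10 when 1 library was left out. The count at 2-fold (5) became 3 with a pseudocount of 5 and 8 with the mean of the other ESC groups as control, and 3 to 5 with 1 library left out. For splicing (0 events), the mean of the other ESC groups as control gave 2, in Hspg2 and Puf60 (the exon edited in the other lines), and leaving out 1 library gave 0 to 4. The other settings kept these counts within 1.5 times, but with other genes: 11 of the 16 were among the 18 called with voom weights and 7 among the 11 called in a fit of the 4 libraries alone. The labels do not say what a replicate letter shares. In the data the A minus B differences correlated at 0.476 between Rbm38KO and WT and at 0.412 to 0.674 over all pairs of ESC groups (9355 genes), a hint of a shared replicate effect. With the letter as a replicate block, 36 genes were called, 5 at 2-fold, 0 splicing events, and 18 genes differed between stages (5 without the block), and all 16 genes stayed called. Napsa, which missed the threshold, was called under the block (0.79, adjusted p = 0.0173). The run on the X chromosome, chosen after its values were seen, held 10 called genes under the block and 0 to 10 over all settings. In simulated data, with the same spread beyond counting error for every gene, the test called 36% of changes of 0.5 on the log2 scale.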
